A study of Homo sapiens with 16 samples.

Results

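The 257 symbols described here are the C/D box small nucleolar RNAs (snoRNAs) of a xenograft study of melanoma. They are all rows of the deposited expression table whose symbol starts with SNORD, 257 of 23260 symbols (1.1%). A375, an established human melanoma cell line that carries mutant BRAF, formed 1 tumor on each flank of immunodeficient NOG (NOD/Scid/IL2γR-/-) mice. Each of 4 groups held 4 tumors from 2 mice, which gave 16 tumors of 8 mice, taken on day 5 of intraperitoneal treatment. J+V tumors came from mice 33 and 34, which received JQ1 and Vemurafenib together. J tumors (mice 26 and 29) received JQ1, a BET bromodomain inhibitor, at 50 mg/kg daily. V tumors (mice 16 and 19) received Vemurafenib, an inhibitor of mutant BRAF, at 25 mg/kg in each of 2 daily doses. Control tumors (mice 2 and 5) received the vehicle. L and R name the flank, so 33L is the left tumor of mouse 33. All groups carried the same single cell line.

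C/D box snoRNAs are short noncoding RNAs of the nucleolus, most of which are cut out of the introns of other genes. Each carries a pair of short motifs, box C near its start and box D near its end. These bind fibrillarin (FBL), NOP56, NOP58 and the small protein encoded by NHP2L1. The RNA pairs with ribosomal RNA (rRNA) or a spliceosomal RNA, and fibrillarin then methylates a ribose at the paired site. A few members act in cutting the rRNA precursor instead. Some, such as the imprinted SNORD115 and SNORD116 copies, have no known rRNA target.

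The values are FPKM, fragments scaled to the length of the RNA and to library size. Total RNA was isolated on RNeasy columns, which favour RNA longer than most members, and rRNA was removed with RiboZero. The members measured 33 to 237 bases in RefSeq (256 matched). In RNA this short, few fragments give a large FPKM. Of the 161 members that reached 1 FPKM in any tumor, 67 were below 1 FPKM in at least 4 tumors. The smallest value of at least 1 in each of these ranged from 23.99 to 675.3 FPKM, with a median of 187. Its median was 501.8 FPKM in members shorter than 70 bases (n = 15), against 56.19 FPKM in those of 90 bases or more (n = 18). Such a member was thus listed at 0 or near it, or at 23.99 FPKM or more, with nothing between. The number of reads behind a value is unknown, and counting error could not be put on it.

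The sequences of the members on which the comparisons turn are given here. SNORD33, SNORD34 and SNORD35A share the host gene RPL13A but differed in the direction of their fitted differences. None of them was called without control tumor 5L. SNORD58A and SNORD58B share RPL17 and 79.7% of their aligned positions. SNORD36A kept its call under every alternative tried, SNORD101 had the largest fitted decrease, and SNORD116-8 stands for the imprinted copies. Capitals mark box C (TGATGA, searched in the first 25 bases) and box D (CTGA, in the last 25 bases), on the strand of the RNA and in DNA letters.
SNORD33: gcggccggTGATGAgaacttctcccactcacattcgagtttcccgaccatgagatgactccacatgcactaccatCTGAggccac
SNORD34: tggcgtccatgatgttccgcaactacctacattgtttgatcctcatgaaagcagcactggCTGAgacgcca
SNORD35A: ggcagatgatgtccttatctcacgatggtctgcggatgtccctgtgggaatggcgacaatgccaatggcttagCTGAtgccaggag
SNORD36A: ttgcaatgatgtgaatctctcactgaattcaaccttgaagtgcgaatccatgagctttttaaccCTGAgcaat
SNORD58A: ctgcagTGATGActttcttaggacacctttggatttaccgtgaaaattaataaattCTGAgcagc
SNORD58B: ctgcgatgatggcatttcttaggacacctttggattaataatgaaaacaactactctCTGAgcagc
SNORD101: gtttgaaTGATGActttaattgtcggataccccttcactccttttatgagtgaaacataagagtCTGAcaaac
SNORD116-8: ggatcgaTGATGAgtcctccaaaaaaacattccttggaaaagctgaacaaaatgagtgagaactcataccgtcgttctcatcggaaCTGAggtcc

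In GRCh37, the coordinates of hg19, SNORD33 lies at chr19:49993872-49993956, SNORD34 at chr19:49994161-49994231 and SNORD35A at chr19:49994432-49994517. All are on the plus strand in introns of RPL13A. SNORD36A (chr9:136217311-136217383, plus strand) lies in an intron of RPL7A, and SNORD101 (chr6:133136446-133136518, plus strand) in an intron of RPS12. SNORD58A (chr18:47017653-47017717) and SNORD58B (chr18:47018034-47018099) lie on the minus strand in introns of RPL17. SNORD116-8 (chr15:25315579-25315673, plus strand) lies within the span of SNHG14. Of the 181 members matched to a GENCODE v44 record on GRCh37, 138 (76.2%) held the exact box C letters, 177 (97.8%) the box D letters and 137 (75.7%) both. SNORD34, SNORD35A, SNORD36A and SNORD58B hold no exact box C in this window.

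The members took a large part of the summed FPKM of every tumor. Their share was 41.04% (33L), 43.98% (33R), 40.41% (34L) and 37.42% (34R) in J+V tumors. It was 38.88% (26L), 38.17% (26R), 40.95% (29L) and 41.69% (29R) in J tumors. V tumors had 28.68% (16L), 35.0% (16R), 31.12% (19L) and 41.45% (19R), and control tumors had 35.99% (2L), 32.52% (2R), 28.72% (5L) and 34.44% (5R). All J+V and J values lay above all control values, whereas V tumors spanned both ranges through the high tumor 19R.

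The mean share was 40.71% ± 2.69 in J+V tumors against 32.92% ± 3.138 in control tumors (SD, n = 4 each). The difference of 7.795 percentage points gave p = 0.02857 in a two-sided exact permutation test (adjusted p = 0.0714 over 5 comparisons). J tumors averaged 39.92% ± 1.667, which was 7.005 points above control (SD, n = 4, exact permutation p = 0.02857, adjusted p = 0.0714). A p of 0.02857 is the smallest that this exact test of 4 against 4 tumors can give, and neither comparison passed 0.05 after adjustment. V tumors averaged 34.06% ± 5.57, a value 1.145 points above control (SD, n = 4, exact permutation p = 0.8). Without tumor 19R the V mean lay below control, with a difference of -1.318 points. J+V was 6.65 points above V (exact permutation p = 0.114, adjusted p = 0.19) and 0.79 points above J (exact permutation p = 0.629). In this test each tumor counts as 1 replicate, although both tumors of a mouse share a host. The mean share by mouse was 42.51% and 38.92% in J+V mice, 38.53% and 41.32% in J mice, 31.84% and 36.29% in V mice, and 34.26% and 31.58% in control mice. Each J+V and J mouse thus lay above both control mice.

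The number of members above 0 FPKM was 126, 127, 122 and 123 in J+V tumors (33L, 33R, 34L, 34R). It was 125, 130, 125 and 134 in J tumors (26L, 26R, 29L, 29R). V tumors (16L, 16R, 19L, 19R) had 112, 119, 116 and 125, and control tumors (2L, 2R, 5L, 5R) had 127, 119, 112 and 121. The counts of J+V and control tumors overlapped. No comparison passed the exact permutation test, in which the smallest unadjusted p was 0.0857, for J against control and for J+V against V. J tumors averaged 128.5 ± 4.359 members and control tumors 119.8 ± 6.185 members (SD, n = 4 each). Counted from 1 FPKM, the members numbered 120 to 124 in J+V tumors, 122 to 132 in J tumors, 109 to 123 in V tumors and 108 to 124 in control tumors, and no comparison passed. Tumor 5L had both the fewest members above 0 and the lowest share of the control group.

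**Figure D1:**
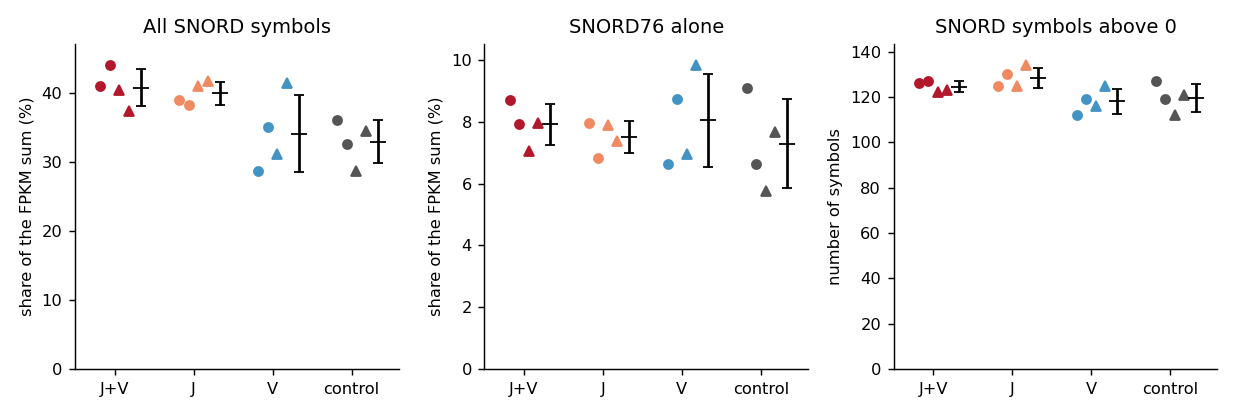
Share of the summed FPKM taken by all SNORD symbols and by SNORD76 alone (%), and the number of SNORD symbols above 0, in each tumor. Circles and triangles are the 2 mice of a group, and black bars the mean ± SD of 4 tumors. The shares of J+V tumors (37.42% to 43.98%) and J tumors (38.17% to 41.69%) lie above those of control tumors (28.72% to 35.99%).

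Of the 257 members, 96 were listed at 0 in all 16 tumors, and 77 were above 0 in every tumor, 74 of them at 1 FPKM or more throughout. Between 0 and 1 FPKM lay 40 values of 4 symbols (SNORD58B, SNORD64, SNORD107 and SNORD108), some as low as 6.33e-86 FPKM. The mean over all tumors was at least 1000 FPKM in 60 members and at least 10000 FPKM in 10 members. The 10 highest made up 52.9% of the summed FPKM of the members. Of the members for rRNA processing that were listed for this work, SNORD22 was found in the table, and SNORD3A, SNORD118, SNORD13, SNORD14C, SNORD14D and SNORD14E were not analysed here.

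SNORD76, a guide for methylation of the large-subunit rRNA, was the highest member. Its FPKM was 121158, 111903, 89656 and 97668 in J+V tumors, 102477, 81523, 100111 and 94374 in J tumors, 77535, 100575, 72091 and 136171 in V tumors, and 111637, 72287, 55897 and 98434 in control tumors. The groups overlapped. In limma, fitted to log2(FPKM + 0.5) of 13426 symbols, J+V exceeded control by 0.35 ± 0.38 (log2 difference ± SE, adjusted p = 0.4795). SNORD76 alone took 5.76% to 9.84% of the summed FPKM of a tumor.

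SNORD27, a guide for the small-subunit rRNA, was next. It had 29473, 26805, 31394 and 25167 FPKM in J+V tumors, 36994, 26668, 26068 and 30746 FPKM in J tumors, 16201, 15232, 17814 and 34082 FPKM in V tumors, and 25426, 14333, 9941 and 20499 FPKM in control tumors. The J tumors lay above all control tumors, and 3 of the 4 J+V tumors did. The log2 difference of J+V from control was 0.77 ± 0.31 (SE, adjusted p = 0.06759), which did not pass the threshold of 0.05.

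SNORD57, also a guide for the small-subunit rRNA, averaged 24060 ± 6515 FPKM in J+V tumors, 29030 ± 4123 FPKM in J tumors, 17770 ± 5299 FPKM in V tumors and 15170 ± 4551 FPKM in control tumors (SD, n = 4 each). SNORD58A, a guide for the large-subunit rRNA, averaged 19940 ± 1199 FPKM in J+V tumors and 15350 ± 2234 FPKM in control tumors. SNORD44, a guide for the small-subunit rRNA, averaged 19680 ± 6608 FPKM in J+V tumors and 16310 ± 6368 FPKM in control tumors. SNORD79, a guide for the large-subunit rRNA, averaged 16030 ± 2334 FPKM in J+V tumors and 17670 ± 1852 FPKM in control tumors. In limma these 4 guides differed between J+V and control by 0.68 ± 0.30 (SNORD57, adjusted p = 0.08677), 0.39 ± 0.24 (SNORD58A), 0.31 ± 0.42 (SNORD44) and -0.15 ± 0.20 (SNORD79) on the log2 scale, and none passed the threshold.

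**Figure D2:**
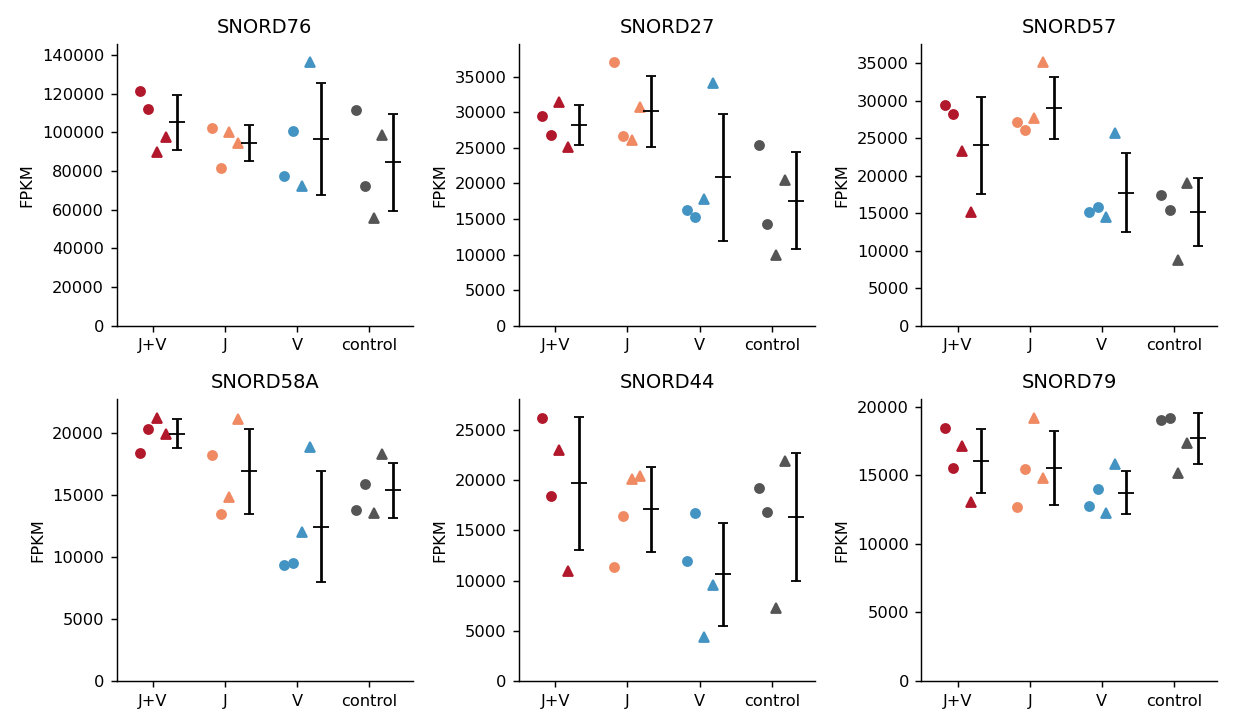
FPKM of the 6 members with the highest mean over 16 tumors, by tumor (linear axes from 0). Circles and triangles are the 2 mice of a group, and black bars the mean ± SD of 4 tumors. None of the 6 passed the test between J+V and control, and V tumor 19R exceeds the other V tumors in all of them except SNORD44.

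Members of the same host gene differed widely in level. GAS5, a noncoding host, holds 10 members in RefSeq, of which SNORD81 was listed at 0 in every tumor. The means of the other 9 spanned 63.8-fold, with 95220 FPKM for SNORD76 and 1493 FPKM for SNORD77. SNHG1, another noncoding host, holds 8 members between 24180 FPKM (SNORD27) and 1945 FPKM (SNORD30). The 4 members in RPL7A spanned 37.9-fold, with 14730 FPKM for SNORD24 and 388.5 FPKM for SNORD36B. FPKM is a value per length, but in RNA this short it still moved with length, as the smallest values above show, so these spans compare deposited values and not molecules.

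The fitted members varied far more within a group than other symbols. The within-group SD of log2(FPKM + 0.5) had a median of 1.08 over the 141 fitted members, against 0.196 over 13285 other symbols. Members averaging 100 to 1000 FPKM had a median SD of 3.565 (n = 68), against 0.18 in other symbols of that range (n = 638). In the range of 1000 to 10000 FPKM it was 0.577 (n = 50), against 0.212 in 102 other symbols. At 10000 FPKM or more it was 0.408 (n = 10), against 0.211 in 5 other symbols. SNORD76 had an SD of 0.33 and SNORD27 one of 0.42. Members averaging 10 to 100 FPKM had a median SD of 3.471 (n = 13), against 0.163 in 5538 other symbols. In each range the median was above that of other symbols, and it was lower from 1000 FPKM upwards than below. Where a member was listed at 0 in some tumors of a group, the size of its SD depends on the pseudocount of 0.5.

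**Figure D3:**
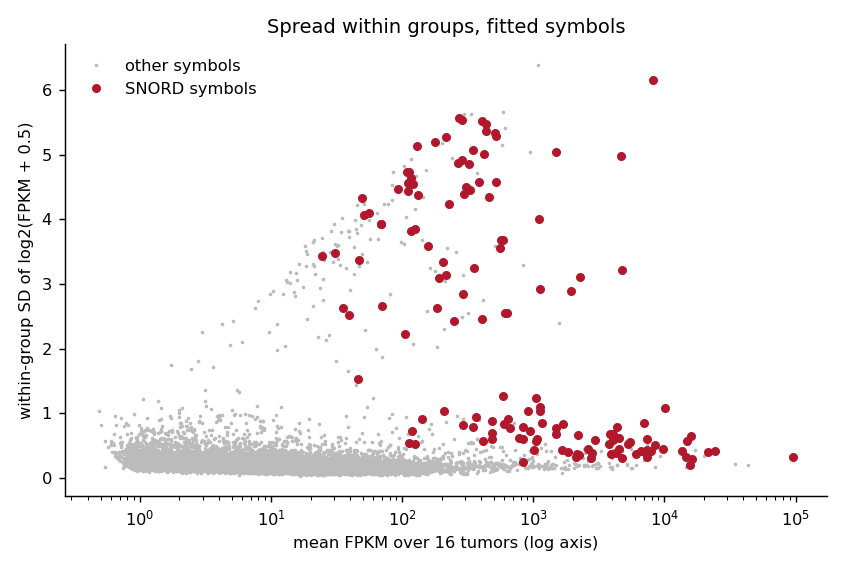
Within-group SD of log2(FPKM + 0.5) against the mean FPKM over 16 tumors (log axis) for each fitted symbol. Red points are the 141 SNORD symbols and grey points the 13285 other symbols. The median SD is 1.08 for SNORD symbols and 0.196 for the others.

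The standard error of a limma difference between groups had a median of 0.661 over the fitted members and 0.1316 over all fitted symbols. For most members, only a difference of more than 1 on the log2 scale could therefore be told from this spread. The fit held the symbols with at least 1 FPKM in at least 4 tumors. Of the 161 members above 0 in any tumor, 141 passed this filter and 20 did not, among them SNORD7, SNORD18A, SNORD73A and SNORD116-10. A member high in a single group can pass the filter through that group, so the counts describe the fitted members and not all 257.

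Between J+V and control tumors, 27 of 141 fitted members passed limma's test at an adjusted p below 0.05, against 37.1% of all symbols tested. Higher in J+V were 22 members (15.6%), against 16.6% of all symbols. Lower were 5 members (3.55%), against 20.5% of all symbols. The median log2 difference was 0.56 over the fitted members and -0.03 over all fitted symbols, and it was above 0 in 92 of 141 members. Of the 60 members averaging at least 1000 FPKM, 17 rose and 2 fell. Of the 81 fitted members below that level, 5 rose and 3 fell. When each tumor was scaled to the same sum over SNORD symbols, which was added after the data were seen, 19 members were higher and 17 lower. The median of all fitted symbols then moved to -0.51, and 7278 of 13426 symbols were called, against 4979 in the main fit. Under quantile normalization 17 members were higher and 8 lower, with 5057 symbols called.

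The count depended on control tumor 5L. This tumor was the lowest of the control group in 37 of the 60 abundant members, with a median log2 difference of -0.63 from the other control tumors. It also had the lowest summed FPKM of all tumors (970443.4). Without it, limma called 4 members between J+V and control, SNORD55, SNORD36A, SNORD87 and SNORD71. They were all among the 27. Over all symbols the calls without 5L were 25.9%. The median log2 difference of the fitted members was then 0.313.

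Most abundant members shifted in the same direction in some tumors, but not in all. Of the 60, those above their mean over all tumors numbered 53 in 33L, 50 in 33R and 29L and 49 in 19R. They numbered 15 in 19L and 5L, but 34 in 2L, 36 in 34R and 5R and 37 in 26R. The median log2 deviation of the abundant members from the mean of all tumors was 0.444, 0.428, 0.264 and 0.147 in J+V tumors (33L, 33R, 34L, 34R). It was 0.218, 0.201, 0.259 and 0.333 in J tumors (26L, 26R, 29L, 29R). V tumors had -0.342 (16L), -0.153 (16R), -0.374 (19L) and 0.325 (19R), and control tumors 0.111 (2L), -0.229 (2R), -0.762 (5L) and 0.083 (5R). Every J+V and J tumor was positive, the V group was split by tumor 19R, and 5L was the lowest of all. The members of a tumor are not independent measures of a group.

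SNORD55, a guide for the large-subunit rRNA, showed the smallest p of all members. It had 2783, 2440, 2708 and 2054 FPKM in J+V tumors, 2114, 2717, 1342 and 2332 FPKM in J tumors, 911.7, 1048, 1844 and 1006 FPKM in V tumors, and 575, 1311, 578.8 and 858.3 FPKM in control tumors. All J+V and J tumors lay above all control tumors. J+V exceeded control by 1.66 ± 0.27 (log2 difference ± SE, limma adjusted p = 0.0004427), and without 5L by 1.52 ± 0.35 (adjusted p = 0.00735). J exceeded control by 1.40 ± 0.27 with an unadjusted p of 0.0001304, which was not called after adjustment over all symbols (adjusted p = 0.1775).

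SNORD87, a guide for the large-subunit rRNA hosted by the noncoding gene SNHG6, had 9560, 13484, 9563 and 7779 FPKM in J+V tumors. J tumors had 12178, 9231, 6893 and 8413 FPKM, V tumors 4811, 4928, 4794 and 9196 FPKM, and control tumors 4456, 3855, 2282 and 5836 FPKM. The J+V and J tumors again lay above all control tumors. The log2 difference of J+V from control was 1.35 ± 0.29 (SE, limma adjusted p = 0.002477).

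SNORD36A, a guide for the small-subunit rRNA, had 4268, 5604, 5677 and 3445 FPKM in J+V tumors, 2357, 3055, 3867 and 2552 FPKM in J tumors, 2099, 2054, 1894 and 3012 FPKM in V tumors, and 631.6, 1356, 1286 and 3710 FPKM in control tumors. Control tumor 5R lay within the J+V range, and the other control tumors below it. The log2 difference of J+V from control was 1.71 ± 0.37 (SE, limma adjusted p = 0.002765). SNORD55, SNORD87 and SNORD36A were the members, of the 27, that kept the call under all 36 alternatives, and they were chosen for the text after their values were seen.

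SNORD29, a guide for the large-subunit rRNA in SNHG1, added most to the difference in share, 0.926 of 7.796 points. It had 9769, 22769, 16164 and 17262 FPKM in J+V tumors, 8953, 13849, 13503 and 16624 FPKM in J tumors, 6047, 2540, 2827 and 14852 FPKM in V tumors, and 5702, 495, 2944 and 6255 FPKM in control tumors. All J+V and J tumors lay above all control tumors, and of the V tumors only 19R did. J+V exceeded control by 2.56 ± 0.66 on the log2 scale (SE, limma adjusted p = 0.00779), and without 5L the adjusted p was 0.0521. SNORD24, in RPL7A, added 0.712 points and SNORD58B added 0.709 points.

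Other abundant members rose as well, of which SNORD24, SNORD47, SNORD26 and SNORD1C are guides for the large-subunit rRNA. SNORD24 averaged 20090 ± 8344 FPKM in J+V tumors and 9293 ± 4468 FPKM in control tumors (SD, n = 4 each, limma adjusted p = 0.02327). SNORD47, in GAS5, averaged 20580 ± 4703 FPKM in J+V tumors and 11260 ± 3509 FPKM in control tumors (adjusted p = 0.01037). SNORD26, in SNHG1, averaged 12820 ± 2510 FPKM in J+V tumors and 6827 ± 1466 FPKM in control tumors (adjusted p = 0.02743). SNORD1C, in SNHG16, averaged 10870 ± 2511 FPKM in J+V tumors and 4112 ± 2503 FPKM in control tumors (adjusted p = 0.02386). SNORD99, SNORD104 and SNORD21 rose by 1.02, 0.99 and 0.88 on the log2 scale. None of these 7 was called without tumor 5L.

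SNORD8 and SNORD9 guide methylation of the spliceosomal RNA U6 and lie in CHD8. SNORD8 had 3850, 4454, 2917 and 3191 FPKM in J+V tumors and 1713, 1238, 1189 and 2889 FPKM in control tumors. SNORD9 had 904.2, 581.6, 726.5 and 683 FPKM in J+V tumors and 409.5, 136, 134.2 and 489 FPKM in control tumors. In both members every J+V tumor lay above every control tumor. J+V exceeded control by 1.11 ± 0.28 in SNORD8 and 1.54 ± 0.36 in SNORD9 (log2 difference ± SE, limma adjusted p = 0.006829 and 0.004554). Both calls were lost without control tumor 5L, and that of SNORD8 also without mouse 33. The median log2 difference of both members from control was 0.589 in J and 0.837 in V tumors, where neither was called.

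**Figure D4:**
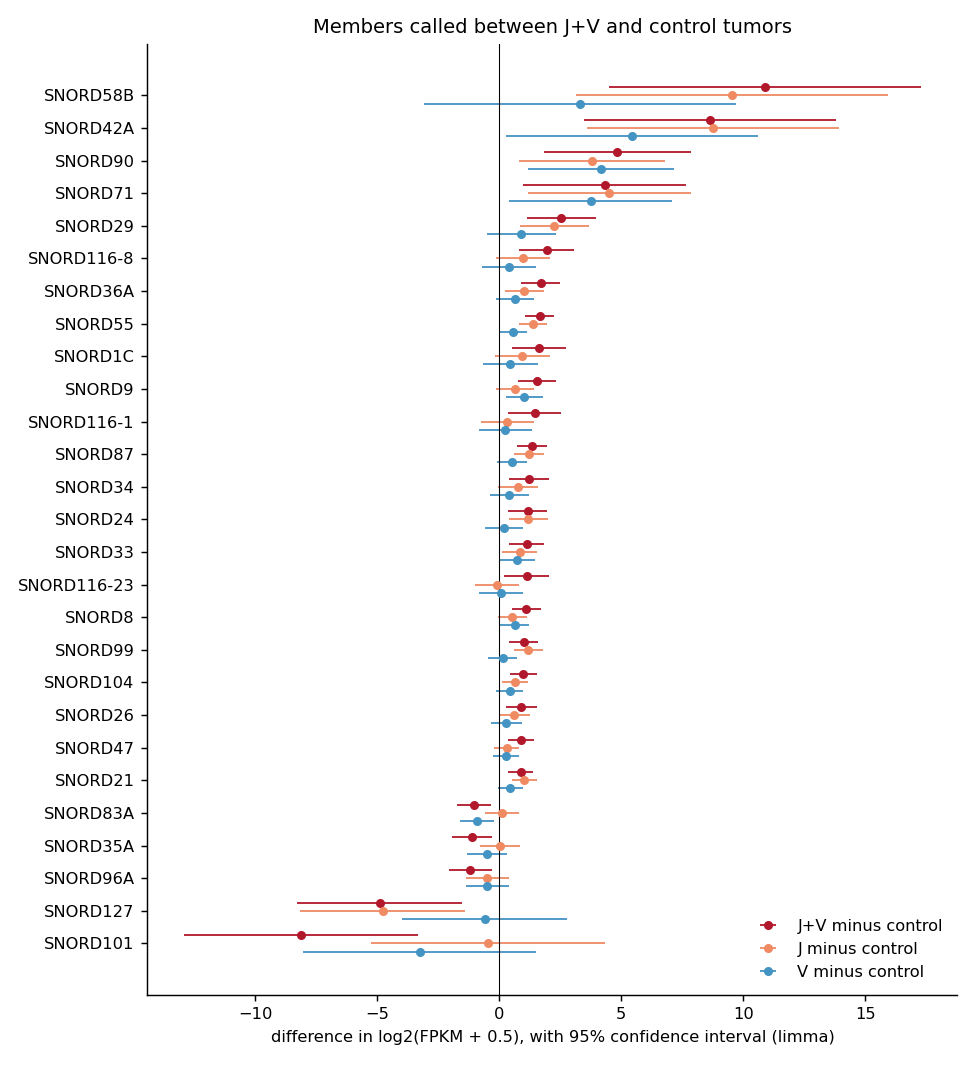
Differences in log2(FPKM + 0.5) from control for the 27 members called between J+V and control, with 95% confidence intervals from limma, for J+V (red), J (orange) and V (blue). J+V exceeds control in 22 members and is below it in 5. The widest intervals belong to SNORD58B, SNORD42A and SNORD101, which were listed at or near 0 in several tumors.

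Several of the largest fitted differences came from members listed at 0 in part of a group, where the size depends on the pseudocount of 0.5. SNORD58B, a close relative of SNORD58A, had 13562, 19469, 2863 and 5655 FPKM in J+V tumors and 649, 2701, 6505 and 8883 FPKM in J tumors. V tumors had 1306 (16L) and 10020 (19R) FPKM, and control tumor 5R had 2699 FPKM. The other 2 V tumors and 3 control tumors were listed at 8.226e-15 FPKM or less. SNORD58B was thus measurable in all J+V and J tumors and in 3 of 8 others (limma adjusted p = 0.011 for J+V against control). The sources do not say how reads that match both SNORD58A and SNORD58B were counted, so their sum was also taken. It was 31904, 39762, 24080 and 25552 FPKM in J+V tumors, 18843, 16164, 21337 and 29991 FPKM in J tumors, 10666, 9505, 12010 and 28886 FPKM in V tumors, and 13755, 15834, 13495 and 21007 FPKM in control tumors. The sum was higher in every J+V tumor than in every control tumor, and the J tumors overlapped the control tumors.

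SNORD42A, a guide for the small-subunit rRNA in RPL23A, had 805.2, 1745, 1751 and 1607 FPKM in J+V tumors. In control tumors 5R had 1292 FPKM and the others were listed at 0 (limma adjusted p = 0.01229). SNORD90, with no known target, had 224.5, 234.3, 193.2 and 44.38 FPKM in J+V tumors, against 78.33, 33.61, 0 and 0 FPKM in control tumors (adjusted p = 0.01455). SNORD71, a guide for the short rRNA of the large subunit, had 95.31, 105.3, 441.1 and 300.2 FPKM in J+V tumors, against 383.7, 0, 84.88 and 0 FPKM in control tumors (adjusted p = 0.0415). SNORD71 overlapped between the groups and lost its call under 17 of 36 alternatives, among them the fits without the mouse block and with only the groups compared. These calls rest on whether a value was listed at 0.

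Among the 5 members called lower in J+V tumors, SNORD101 and SNORD127 were listed at 0 in several tumors. SNORD101, with no known target, had 658.8 FPKM in tumor 33L and 0 in the other J+V tumors, against 1719, 1238, 877.3 and 261.4 FPKM in control tumors (limma adjusted p = 0.01127). J tumors had 267.1, 837.4, 1179 and 525.2 FPKM. SNORD127, in PRPF39, had 35.08, 0, 0 and 34.99 FPKM in J+V tumors, 0, 29.82, 0 and 58.78 FPKM in J tumors, 117.7, 34.81, 196.8 and 58.43 FPKM in V tumors, and 209.7, 105.5, 189.5 and 57.62 FPKM in control tumors. Every J+V tumor lay below every control tumor (adjusted p = 0.02513).

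SNORD96A, SNORD35A and SNORD83A were above 0 in all 16 tumors. SNORD96A, a guide for the short rRNA of the large subunit, had 455.8, 1255, 1014 and 915.9 FPKM in J+V tumors and 2150, 2237, 1445 and 2037 FPKM in control tumors. J+V was below control by a log2 difference of -1.18 ± 0.41 (SE, limma adjusted p = 0.03619). SNORD83A, in RPL3, had 118.6, 66.58, 68.01 and 62.53 FPKM in J+V tumors and 152.1, 226.8, 164.5 and 100.3 FPKM in control tumors (log2 difference -1.02 ± 0.33, adjusted p = 0.02548). The groups did not overlap in SNORD96A, and in SNORD83A tumor 33L lay above control tumor 5R. The calls of SNORD96A, SNORD83A and SNORD35A were each lost without several of the single tumors. Neither was called without tumor 5L, nor were SNORD101, SNORD127 and SNORD35A.

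**Figure D5:**
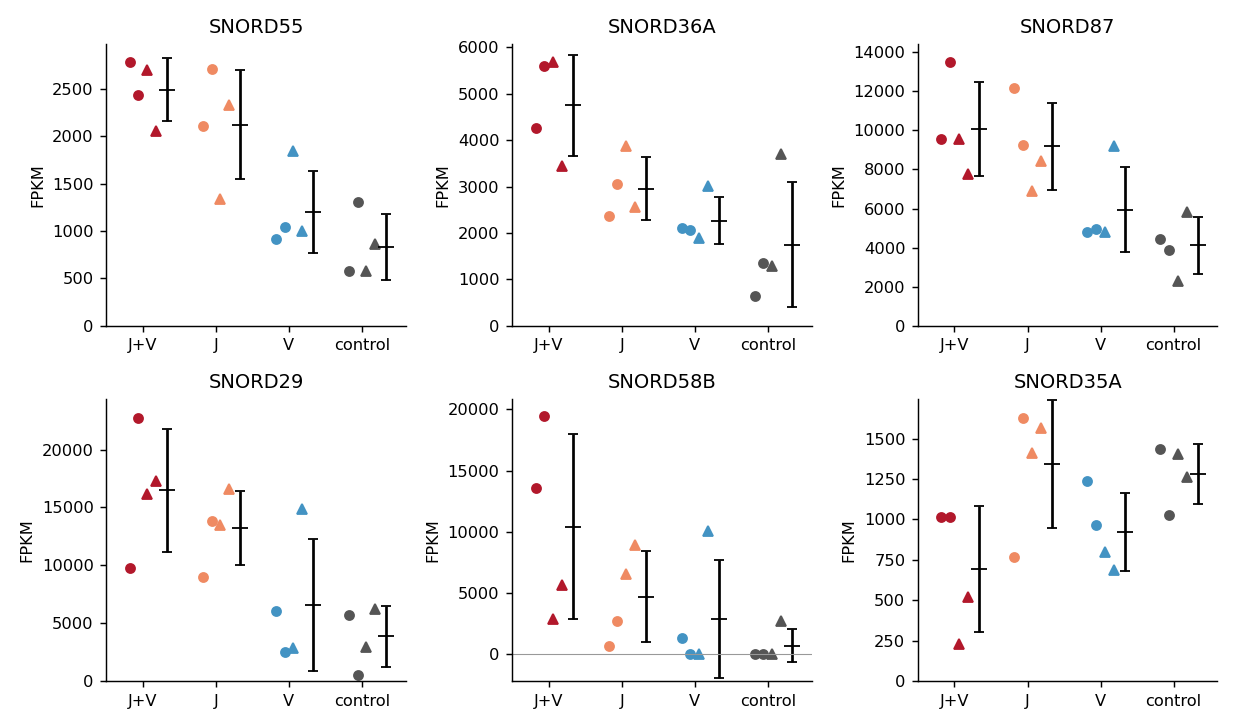
FPKM by tumor of 5 members called higher in J+V than in control (SNORD55, SNORD36A, SNORD87, SNORD29 and SNORD58B) and of SNORD35A, called lower (linear axes). Circles and triangles are the 2 mice of a group, and black bars the mean ± SD of 4 tumors. In SNORD55, SNORD87 and SNORD29 every J+V and J tumor lies above every control tumor.

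The 4 members in introns of RPL13A differed in direction. SNORD33, a guide for the small-subunit rRNA, had 7103, 8278, 7291 and 4853 FPKM in J+V tumors and 4298, 3670, 1279 and 4380 FPKM in control tumors (log2 difference 1.14 ± 0.34, limma adjusted p = 0.01613). SNORD34, a guide for the large-subunit rRNA, had 7716, 17075, 10794 and 7678 FPKM in J+V tumors and 7417, 3441, 2058 and 6830 FPKM in control tumors (1.23 ± 0.38, adjusted p = 0.0203). In both, every J+V tumor lay above every control tumor. SNORD35A, the member just after SNORD34 in the same gene, had 1013, 1015, 227.2 and 521.2 FPKM in J+V tumors and 1433, 1029, 1403 and 1262 FPKM in control tumors (-1.10 ± 0.38, adjusted p = 0.03524). Every J+V tumor lay below every control tumor, but both tumors of mouse 33 lay close to control tumor 2R (1029 FPKM). The SNORD35A call was lost under 12 of 36 alternatives, among them the mean of each mouse's tumors. Without single mice its log2 difference ranged from -1.883 to -0.325. SNORD33 lost its call under 3 alternatives and SNORD34 under 6. SNORD32A did not pass the test. RPL13A itself averaged 631.6 ± 49.75 FPKM in J+V tumors and 551.8 ± 139.3 FPKM in control tumors (adjusted p = 0.3314). Members of 1 host are made from the same primary transcript and are not replicates of each other.

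Grouped by host, 11 of the 33 fitted members in ribosomal protein genes were called between J+V and control, 8 higher and 3 lower, against 37.1% of all symbols called, 16.6% higher and 20.5% lower. All 7 called members in noncoding hosts were higher (of 36 fitted), as were the 3 called members of the imprinted clusters (of 21 fitted). In other protein-coding genes, 4 were higher and 2 lower (of 50 fitted). Within GAS5, 1 of 9 fitted members was called (SNORD47), and within SNHG1 2 of 8 (SNORD29 and SNORD26).

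Of 59 fitted host genes, 1 rose between J+V and control (EIF4A2) and 18 fell, against 16.6% higher and 20.5% lower of all symbols. GAS5 averaged 629.4 ± 21.16 FPKM in J+V tumors and 515.9 ± 58.95 FPKM in control tumors (SD, n = 4 each, limma adjusted p = 0.146). SNHG1 averaged 52.14 ± 5.939 FPKM in J+V tumors and 54.44 ± 4.672 FPKM in control tumors (adjusted p = 0.6744). Among the ribosomal protein hosts of the members named above, RPL7A, RPL17, RPL23A, RPS12 and RPL13A did not pass the test, with log2 differences between -0.18 (RPL17) and 0.22 (RPL13A). SNRPB, a splicing factor gene that hosts 1 member, showed the largest decrease of the hosts, with 57.36 ± 6.621 FPKM in J+V tumors and 117.5 ± 20.05 FPKM in control tumors (log2 difference -1.02 ± 0.17, adjusted p = 0.0005156).

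The imprinted clusters were measured unequally. SNORD113 (7 symbols) and SNORD115 (45 symbols) were listed at 0 in every tumor, and 3 of 31 SNORD114 symbols were above 0. Of 27 SNORD116 symbols, which lie within SNHG14 in the region tied to Prader-Willi syndrome, 21 were above 0 and 20 were fitted. Their summed FPKM was 17168, 20096, 10854 and 13614 in J+V tumors, 11878, 9191, 8855 and 8164 in J tumors, 8831, 10381, 11050 and 10267 in V tumors, and 12166, 7966, 4455 and 12446 in control tumors. The sum averaged 15430 ± 4042 FPKM in J+V tumors and 9258 ± 3802 FPKM in control tumors (SD, n = 4 each), and the groups overlapped through tumor 34L.

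Of the SNORD116 copies, 3 were called between J+V and control. SNORD116-8 had 2222, 3194, 1628 and 1387 FPKM in J+V tumors, 1689, 668.5, 1094 and 900.4 FPKM in J tumors, 220.8, 936.5, 1059 and 1027 FPKM in V tumors, and 760.4, 197.2, 466.1 and 1048 FPKM in control tumors. Every J+V tumor lay above every control tumor (log2 difference 1.94 ± 0.52, limma adjusted p = 0.009501). SNORD116-1 rose by 1.46 ± 0.51 and SNORD116-23 by 1.12 ± 0.42 (adjusted p = 0.03663 and 0.04974), but SNORD116-1 lost the call under 14 and SNORD116-23 under 26 of 36 alternatives. SNORD116-8 and SNORD116-1 are identical at 91 of 96 aligned positions, so the split of reads between copies is uncertain. Over the 21 fitted members of the imprinted clusters the median log2 difference was 1.124 for J+V against control, 0.299 for J against control and 0.256 for V against control. These comparisons share the control tumors.

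For J against control, limma called no member at an adjusted p below 0.05, as it called 0% of all symbols. At an unadjusted p below 0.05 there were 26 members (18.4%), 23 of them higher in J, against 8.49% of all symbols. The median log2 difference was 0.34 over the fitted members. These values also depended on control tumor 5L. Without it, limma gave 10 members at an unadjusted p below 0.05, and the median was 0.178. SNORD29 exceeded control by 2.27 ± 0.66, SNORD24 by 1.20 ± 0.37 and SNORD57 by 0.99 ± 0.30 (log2 difference ± SE), with adjusted p values of 0.3258, 0.3511 and 0.3398. Without control tumor 5R, 4 members were called, all higher in J, among 101 of 13426 symbols.

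For V against control no member was called either, again against 0% of all symbols. At an unadjusted p below 0.05 there were 14 members (9.93%), 7 higher and 7 lower, against 16.1% of all symbols. The median log2 difference over the fitted members was 0.07. Without control tumor 5R, 3 members were called among 423 of 13426 symbols, and without V tumor 19R 1 was, among 177 symbols. The additivity contrast, which sets J+V against the J and V differences added together, was called in no member and in 0% of all symbols. It reached an unadjusted p below 0.05 in 9 members (6.38%), against 12.6% of all symbols, with a median of 0.00.

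Between J+V and J tumors, 5 members were called, against 27.0% of all symbols. The 1 higher member (against 8.67% of all symbols) was SNORD116-23, with 421, 1075, 754.3 and 949.1 FPKM in J+V tumors and 407.4, 119.2, 439.1 and 546 FPKM in J tumors (adjusted p = 0.04864). The groups overlapped, and this call was lost under 26 of 36 alternatives. The 4 lower members (against 18.4% of all symbols) were SNORD37, SNORD101, SNORD83A and SNORD35A. SNORD37, a guide for the large-subunit rRNA in EEF2, was listed at 0 in all J+V tumors, against 0, 1016, 538 and 479.9 FPKM in J tumors. It was also at 0 in all V tumors and in 3 control tumors. SNORD37 thus passed the filter only through J tumors 26R, 29L and 29R and control tumor 5R (474.6 FPKM). Its call against J is limited by this, and it was lost under 7 of 36 alternatives. SNORD101 was at 0 in 3 J+V tumors and above 0 in all J tumors (adjusted p = 0.02107). The count moved with single tumors, including those in neither group, which add to the shared spread. It was 0 without 5L, 1 without 26R, 2 without 29L or 34R, 3 without 26L, 29R or 16R, 8 without 2L and 9 without 2R.

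Between J+V and V tumors, 5 members were called, against 13.3% of all symbols. All 5 were higher in J+V, against 4.99% of all symbols, and none was lower, against 8.31%. SNORD23, with no known target and hosted by NOP53, had 24.38, 52.29, 25.87 and 47.59 FPKM in J+V tumors, against 0, 0, 0 and 19.38 FPKM in V tumors (adjusted p = 0.005145). J and control tumors had 19.22 to 178 FPKM. SNORD88B was at 32.99, 35.79, 103.5 and 0 FPKM in J+V tumors and at 0 in all V tumors (adjusted p = 0.04173, lost under 20 of 36 alternatives). The others were SNORD55 (2496 ± 329.4 FPKM in J+V and 1202 ± 431.7 FPKM in V tumors), SNORD32A (1571 ± 552.1 and 592.9 ± 286.5 FPKM in J+V and V tumors) and SNORD12B (485.2 ± 53.07 and 180.8 ± 109.9 FPKM in J+V and V tumors, SD, n = 4). SNORD23 kept its call under all 36 alternatives and was the 1 member called without control tumor 5L. The count was 8 without 19R, 10 without 2L and 11 without 2R. Scaled to the same sum over SNORD symbols, 9 members were higher and 10 lower, with 5318 of 13426 symbols called, against 1786 in the main fit.

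SNORD22, which acts in processing of the rRNA precursor, had 8498, 8510, 6016 and 7279 FPKM in J+V tumors, 9438, 7566, 6854 and 7234 FPKM in J tumors, 4780, 4927, 5096 and 7426 FPKM in V tumors, and 8365, 4228, 2771 and 6531 FPKM in control tumors. The groups overlapped, and J+V exceeded control by 0.58 ± 0.27 on the log2 scale (SE, limma adjusted p = 0.1108).

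None of the fitted genes for the core proteins of the box C/D particle was called higher in J+V. FBL, the methyltransferase, averaged 22.24 ± 1.56 FPKM in J+V tumors, 30.27 ± 0.985 FPKM in J tumors, 28.85 ± 4.52 FPKM in V tumors and 33.26 ± 4.07 FPKM in control tumors (SD, n = 4 each). J+V was below control by a log2 difference of -0.56 ± 0.10 (SE, limma adjusted p = 0.0008025). NOP56, itself a host of 4 members, averaged 74.18 ± 3.18 FPKM in J+V tumors and 112.3 ± 5.97 FPKM in control tumors (log2 difference -0.59 ± 0.09, adjusted p = 0.0003424). NOP58 (-0.27 ± 0.15) and NHP2L1 (-0.21 ± 0.12) did not pass the test. The list thus had 2 lower and 0 higher of 4 fitted genes, against 20.5% lower and 16.6% higher of all symbols.

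Of 14 fitted genes for assembly and transport of the particle, 1 rose and 7 fell between J+V and control, with a median log2 difference of -0.18. The one that rose was NUFIP1, an assembly platform (0.24 ± 0.06, adjusted p = 0.006477). Those that fell were RUVBL1 and RUVBL2, the ATPases of the assembly complex (-0.91 ± 0.14 and -0.55 ± 0.11), PIH1D1 (-0.73 ± 0.14), ZNHIT3 (-0.35 ± 0.11), NOLC1 (-0.28 ± 0.07), the cap methyltransferase TGS1 (-0.24 ± 0.07) and the Cajal body protein COIL (-0.22 ± 0.08). RUVBL1 averaged 41.38 ± 8.62 FPKM in J+V tumors and 76.81 ± 4.83 FPKM in control tumors (SD, n = 4 each). Of 17 genes for trimming and decay of snoRNAs, 0 rose and 10 fell, 8 of them exosome subunits such as EXOSC8 (-0.54 ± 0.09) and EXOSC6 (-0.68 ± 0.18). Of 9 fitted noncoding host genes, 1 fell, SNHG12 (-0.41 ± 0.09). Lower calls were also made in 20.5% of all symbols.

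Bulk tumor RNA does not separate the cells it came from. The host cells of these tumors were mouse cells, while reads were mapped to the human genome. The fibroblast, macrophage and endothelial sums therefore do not measure the host cells. Whether these values came from the A375 cells or from mouse reads is unknown. Summed FPKM of 7 melanocyte markers was 69.9 to 99.9 in J+V tumors, 41 to 52.1 in J tumors, 45 to 52.4 in V tumors and 34.3 to 50.9 in control tumors. SOX10, MITF, MLANA and S100B were measured, PMEL and TYR averaged below 1 FPKM, and DCT was at 0 in every tumor. S100B had the highest mean of the 7 (28.5 FPKM) and the widest range, 12.7 to 63.7 FPKM. MITF ranged over 6.88 to 12.8 FPKM and MLANA over 3.42 to 7.46 FPKM. The 6 fibroblast markers summed to 62.4 to 115 FPKM in J+V tumors, 57.3 to 74.1 FPKM in J tumors, 55.5 to 112 FPKM in V tumors and 36.2 to 121 FPKM in control tumors. The 5 macrophage markers summed to 21.8 to 24.7 FPKM in J+V tumors, 24.9 to 27.9 FPKM in J tumors, 17.2 to 24.9 FPKM in V tumors and 17.4 to 21.1 FPKM in control tumors. CD68 made up most of this sum, and CSF1R, PTPRC, ITGAM and CD14 averaged below 1 FPKM. All 5 endothelial markers averaged below 1 FPKM, as did 3 of 4 keratinocyte markers. The part of the marker difference in the values of the members was not tested. A change in the level per cell and a change in the share of cells that express a member cannot be told apart.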

How the data were processed

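The authors isolated total RNA from the tumors with RNeasy columns, removed rRNA with RiboZero, made libraries with ScriptSeq v2, mapped reads to hg19 with TopHat and deposited FPKM for 23260 symbols in 16 tumors. The processing notes also name bcl2fastq and Cufflinks. The sources used here do not give the annotation, the tool versions or any removal of mouse reads. All 16 value columns were used.

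Symbols with at least 1 FPKM in at least 4 tumors (13426, among them 141 SNORD) were fitted as log2(FPKM + 0.5) in R 4.3.3 with limma 3.58.1. The fit had a mean-variance trend, 4 groups and the mouse as block (correlation -0.0674), on 12 residual degrees of freedom. Since this correlation was negative, the block made the test less strict than a fit without it. For J+V against control, 4979 symbols were called with the block, 4598 without it and 3801 on the mean of each mouse's tumors. A call is a Benjamini-Hochberg adjusted p below 0.05 over all fitted symbols. The script was tested on simulated data, drawn as independent normal values for each tumor. These held no mouse effect and no undetected members, so that test does not bear on calls that rest on either. Shares and numbers detected were compared by two-sided exact permutation tests of 4 against 4 tumors. Tumors are the replicates, so p-values measure the spread between tumors of 2 mice per group.

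Members were matched to RefSeq by symbol (256) and to GENCODE v44 on GRCh37 (181). Their host is the shortest RefSeq gene spanning them. Identity was counted over a global alignment.

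Named members are the 6 highest by mean FPKM, up to 6 higher and 6 lower called members with the largest log2 difference for J+V against control (5 were called lower), up to 2 and 2 for each other comparison, SNORD22, SNORD58B, SNORD29 and SNORD127, and the box C/D protein and host genes tied to them. SNORD55, SNORD87, SNORD36A and the other called members were chosen after their values were seen. Members and lists were chosen with earlier results of these data known. Alternatives covered pseudocount, filter, scaling, block, trend, groups fitted, and leaving out each tumor and mouse. Tables and plots used Python 3.11.15, pandas 2.3.3, numpy 2.4.6, scipy 1.17.1 and matplotlib 3.10.9.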

Additional observations from a re-analysis of the deposited data

Results flagged for a closer look

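In 105 groups of 4 tumors, 15 values lay farther from the rest of their group than Dixon's 95% critical value allows. A rate of about 1 in 20 (5.2 groups) would hold for independent, normally distributed values, which these are not. Where the other tumors of a group were listed at 0, a single value above 0 was always flagged. The same tumors recur across members, and most members examined were named for their calls. The number flagged therefore cannot be set against that rate. No departure from additivity passed the threshold in a member. Tumor 19R stood apart from the other V tumors in SNORD27 (34082 FPKM, others 15232 to 17814), SNORD57 (25675 FPKM, others 14481 to 15808), SNORD87 (9196 FPKM, others 4794 to 4928), SNORD22 (7426 FPKM, others 4780 to 5096), SNORD58B (10020 FPKM, others up to 1306) and SNORD23 (19.38 FPKM, others at 0). The same tumor had the highest share of the V group (41.45%). In other V tumors, SNORD116-8 was low in 16L (220.8 FPKM, others 936.5 to 1059) and SNORD55 was high in 19L (1844 FPKM, others 911.7 to 1048). Tumor 33L stood apart from the other J+V tumors in SNORD42A (805.2 FPKM, others 1607 to 1751), SNORD101 (658.8 FPKM, others at 0) and SNORD83A (118.6 FPKM, others 62.53 to 68.01). Tumor 29R was low among J tumors in SNORD88B (27.82 FPKM, others 56.88 to 62.84). Tumor 5R was the 1 control tumor above 0 in SNORD42A (1292 FPKM) and SNORD37 (474.6 FPKM), and the 1 with a value above 1 in SNORD58B (2699 FPKM).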

How the results depend on the processing

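The count of 27 members called between J+V and control was 20 to 36 under the alternatives other than leaving out tumors or mice. It ranged over 4 to 35 without single tumors and over 12 (without mouse 33) to 29 without single mice, with 15 without mouse 5. The lowest, 4, was without control tumor 5L. For J+V against control, scaling to the sum over SNORD symbols gave 19 higher and 17 lower members, quantile normalization 17 and 8, and a common sum (TPM) 21 and 7. Of all 13426 symbols, these called 7278, 5057 and 5543, against 4979 in the main fit. TPM moved the median of all fitted symbols to -0.222. Of the 27 called members, 3 kept the call under all 36 alternatives and none changed direction. Without the mouse block (no replicate block) the counts were 25, 4 for J+V against J and 4 for J+V against V. The tumors of a mouse are not paired across groups, so no pairing was fitted.

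Counts of 5 or fewer moved more. J+V against J gave 5 calls, 3 with no filter, 9 with only the groups compared, 0 to 9 without single tumors and 0 to 10 without single mice. J+V against V gave 5 calls, 12 with TPM and 19 with the sum over SNORD symbols (9 higher and 10 lower, added after the data were seen). It gave 1 to 11 calls without single tumors and 3 to 13 without single mice. Of all 13426 symbols, TPM called 2889 and the SNORD sum 5318, against 1786 in the main fit. Tumor means per mouse gave 1 call for J against control, 1 for V against control and 2 for the departure from additivity, and the SNORD sum gave 1 for V against control, all against 0. Leaving out tumors gave 0 to 4 calls for J, 0 to 3 for V and 0 to 1 for the departure, and leaving out mice 0 to 2, 0 to 2 and 0 to 1. Without 5R, 4 members were called for J and 3 for V, and without 19R 1 for V and 1 for the departure. Without single tumors J+V against J gave 0 (5L), 1 (26R), 2 (29L or 34R), 3 (26L, 29R or 16R), 8 (2L) and 9 (2R), and J+V against V gave 1 (5L), 8 (19R), 10 (2L) and 11 (2R). The share difference of J+V from control stayed between 6.396 and 8.892 points without single tumors, and that of J+V from J between -0.299 and 1.887 points. These counts rest on short RNAs of unknown depth.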
